A study of Homo sapiens with 6 samples.

Results

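The transcripts of the human mitochondrial genome were followed in 6 xenografts of PATU, a pancreatic ductal adenocarcinoma cell line, grown under the skin of nude mice. The cells carried an shRNA that doxycycline switches on and that targets ME3, a malic enzyme of the mitochondrial matrix. The hairpin was induced in the 2 on-dox tumours and left uninduced in the 4 off-dox tumours. There was no control hairpin, so doxycycline, hairpin induction and lower ME3 cannot be told apart. All tumours derive from 1 cell line, and nude mice lack mature T cells but still supply host myeloid cells, fibroblasts, vessels and muscle. Members were the rows of the count table whose symbol begins with MT-, which gave 37 of 57773 genes: 13 mRNAs, 2 rRNAs and 22 tRNAs.

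Mitochondrial DNA is a small circle present in many copies per cell. Both of its strands are transcribed by the polymerase POLRMT into long precursors, in which tRNAs stand between most of the longer genes. Cutting at the tRNA ends, by the PRORP complex and by ELAC2, releases mRNAs, rRNAs and tRNAs together. The mRNAs encode core subunits of respiratory complexes I, III and IV and of the ATP synthase, complex V, and the rRNAs and tRNAs serve the mitochondrial ribosome that translates them. All other proteins of the organelle, ME3 among them, come from nuclear genes.

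Total counts were 24529707 and 25731887 in the on-dox tumours and 23855338 to 26885699 off dox. ME3 was at 33.3 and 28.5 CPM (counts scaled to a fixed library total with TMM factors) in on-dox tumours 1 and 2, against 44.1, 44.0, 38.6 and 37.9 CPM in off-dox tumours 1 to 4. Its log2 fold change, on dox minus off dox, was -0.41 (SE 0.12; edgeR quasi-likelihood adjusted p = 0.148). The 8 epithelial markers, among them KRT8, KRT18 and EPCAM, summed to 1129 and 1292 CPM on dox and 1381 to 1619 CPM off dox. KRT8 was the largest part, at 689 and 776 CPM on dox and 866 to 1048 CPM off dox. EPCAM went the other way, at 33.3 and 39.2 CPM on dox and 24.7 to 30.0 CPM off dox. Of 7 tested, 4 had a log2 fold change above 0 and 3 below, with a median of 0.04. KRT19 was near 0, and KRT7 was at 0.735 and 0.890 CPM on dox and 0.229 to 1.58 CPM off dox. Host markers were uneven. The 8 skeletal muscle markers summed to 3.87 and 16.0 CPM on dox and to 2.15, 71.3, 6.12 and 709 CPM in off-dox tumours 1 to 4. The fibroblast and endothelial markers summed to 131 and 318 CPM on dox and 146 to 799 CPM off dox. Of the myeloid markers, CSF1R was present at 14 and 13.2 CPM on dox and 11 to 14.1 CPM off dox, while TYROBP had no count in any tumour. The 4 erythroid markers summed to 0.387 and 0.647 CPM on dox and 0.648 to 1.81 CPM off dox. No marker passed the edgeR test at an adjusted p under 0.05. The markers of smallest p in each list were EPCAM, KRT8 and KRT18, DES, MYL1 and MYLPF of muscle, ITGAM, CD14 and CSF1R of myeloid cells, DCN, CDH5 and COL1A2 of stroma and vessels, and ALAS2 and HBB of red cells, with EPCAM the lowest at 0.168 after adjustment. In bulk tumours, fewer cells of a type and less RNA per cell cannot be told apart.

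Mitochondrial mRNAs took their largest share of counts in on-dox tumour 1. They made up 0.529% of all gene counts there (Wilson 95% interval 0.526% to 0.532%) and 0.260% in on-dox tumour 2 (0.258% to 0.262%). Off-dox tumours 1 to 4 were at 0.222%, 0.256%, 0.276% and 0.255%. On-dox tumour 1 thus stood outside the range of the other 5 tumours, and on-dox tumour 2 stood within the off-dox range. Intervals cover counting error only. How mouse reads and reads that also fit nuclear copies were treated is not given in the sources used here, and the size of all these shares may depend on it.

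The rRNAs took 0.0196% and 0.0147% of counts on dox and 0.0130%, 0.0156%, 0.0210% and 0.0112% in off-dox tumours 1 to 4, so both on-dox values lay inside the off-dox range. The tRNAs took 0.00527% and 0.00620% on dox, against 0.00598% to 0.00678% off dox, with on-dox tumour 1 the lowest of the 6. Per mRNA count there were 0.0370 and 0.0567 rRNA counts on dox and 0.0441 to 0.0759 off dox. For tRNAs the ratio was 0.00996 and 0.0239 on dox and 0.0235 to 0.0287 off dox. On-dox tumour 1 thus had the lowest ratio of both kinds. These are ratios of counts, and how fully the libraries recovered each class was not tested.

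**Figure D1:**
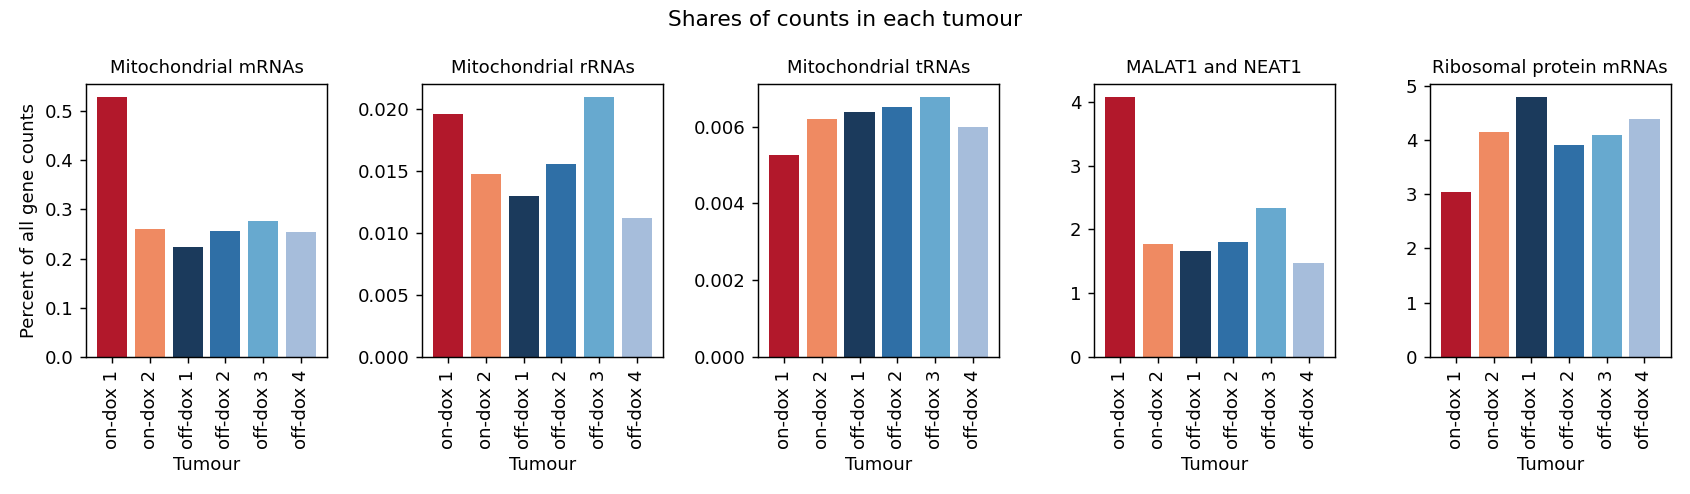
Percent of all gene counts taken by mitochondrial mRNAs, rRNAs and tRNAs, by MALAT1 with NEAT1 and by cytosolic ribosomal protein mRNAs, with 1 bar per tumour and no error bars. On-dox tumour 1 is highest for mitochondrial mRNAs (0.529%) and for MALAT1 with NEAT1 (4.08%), and lowest for tRNAs (0.00527%) and ribosomal protein mRNAs (3.03%).

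Other features of the libraries moved with on-dox tumour 1. MALAT1 and NEAT1, long RNAs retained in the nucleus, took 4.08% and 1.77% of counts in on-dox tumours 1 and 2, against 1.48% to 2.33% off dox. Their log2 fold changes were 0.67 and 0.60 (adjusted p = 0.283 and 0.341), and none of 4 nuclear-retained RNAs passed, OIP5-AS1 being at 0.17 (adjusted p = 0.419). Cytosolic ribosomal protein mRNAs took 3.03% and 4.14% on dox, against 3.90% to 4.79% off dox. With the 4 nuclear-retained RNAs left out of the totals, mitochondrial mRNAs took 0.551% and 0.265% on dox and 0.226% to 0.283% off dox. Of protein-coding counts alone they took 0.626% and 0.316% on dox and 0.275% to 0.333% off dox. A link between these features and the mitochondrial values was not tested.

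In the comparison of all on-dox with all off-dox tumours, 0 of 13 mRNAs, 0 of 2 rRNAs and 0 of 6 tested tRNAs passed at an adjusted p under 0.05 (edgeR quasi-likelihood test with Benjamini-Hochberg adjustment over 21308 genes), where 1.06% of all genes tested passed, 0.465% in the higher direction. At an unadjusted p under 0.05 there were 11 mRNAs, 0 rRNAs and 1 tRNA, beside 14.3% of all genes. DESeq2 called 2 mRNAs, MT-CO1 and MT-CO2 (3.4% of all genes), and limma voom called 0. With no low-count filter edgeR called 11 mRNAs, all except MT-CO3 and MT-ND3 (1.96% of all genes). The median log2 fold change was 1.01 over the mRNAs, 0.17 over the rRNAs and -0.16 over the tested tRNAs, against -0.0031 over all genes tested.

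These values rested on on-dox tumour 1. A gene that passed is termed called. Without it, the mRNAs had a median log2 fold change of 0.13 and 0 were called (0.318% of all genes called). Without on-dox tumour 2 the median was 1.56 and 11 of 13 mRNAs were called, all except MT-CO3 and MT-ND3 (2.44% of all genes called). That fit has a single on-dox tumour, whose spread is taken from the off-dox group. Relative to the off-dox mean, the mRNAs lay between -0.18 and 1.99 on the log2 scale in on-dox tumour 1 and between -0.17 and 0.43 in on-dox tumour 2. In on-dox tumour 1, 12 of 13 mRNAs were above every off-dox tumour (30.1% of all genes), and 9 were over 2-fold above the off-dox mean (3.97% of all genes). In on-dox tumour 2, 4 of 13 mRNAs were above every off-dox tumour (24.7% of all genes).

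Complex I is the large proton-pumping NADH dehydrogenase, and 7 of its core subunits are mitochondrially encoded. MT-ND5, a proton-channel subunit, was at 420.3 and 143 CPM in on-dox tumours 1 and 2, against 77.6, 117, 129 and 101 CPM in off-dox tumours 1 to 4. Both on-dox tumours lay above all off-dox tumours, but on-dox tumour 2 was much nearer to them. Its log2 fold change was 1.41 (SE 0.32, 95% interval 0.71 to 2.11; edgeR adjusted p = 0.068). A two-sided exact permutation of CPM, with 15 ways to split the tumours, gave p = 0.0667 for MT-ND5, the smallest this design allows.

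MT-ND4 and MT-ND4L, both membrane-arm subunits, lie next to each other and are known to share 1 mRNA. MT-ND4 was at 443 and 140.0 CPM on dox and at 92.4, 134, 156 and 126 CPM in off-dox tumours 1 to 4. MT-ND4L was at 106 and 34 CPM on dox and at 25.9, 34.5, 34.1 and 28.4 CPM off dox. In each case only on-dox tumour 1 was outside the off-dox range. MT-ND4L had 0.238 and 0.243 counts per MT-ND4 count on dox and 0.218 to 0.280 off dox, so the on-dox tumours lay within the off-dox range. Their log2 fold changes were 1.20 (SE 0.34, adjusted p = 0.133) for MT-ND4 and 1.18 (SE 0.32, adjusted p = 0.119) for MT-ND4L.

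The reading frames of that pair, and those of MT-ATP8 and MT-ATP6, overlap on the same strand. The stretches are shown because a read that covers any of the capitals overlaps both genes. The sequences come from GENCODE 29 transcripts (GRCh38), read from the 5′ to the 3′ end in DNA letters. Capitals mark the shared bases, with the end of the first gene before them and the start of the second after them.
MT-ND4L and MT-ND4: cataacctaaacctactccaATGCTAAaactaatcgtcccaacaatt
MT-ATP8 and MT-ATP6: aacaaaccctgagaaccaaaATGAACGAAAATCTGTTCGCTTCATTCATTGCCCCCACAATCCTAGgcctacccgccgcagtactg
The first pair shares 7 bases, and the second shares 46 bases, which is 22.2% of MT-ATP8 and 6.75% of MT-ATP6. How the authors counted reads in such overlaps is not given in the sources used here, so the level of MT-ATP8 is uncertain.

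MT-ND1 and MT-ND2, membrane-arm subunits encoded just after the rRNAs, showed the same separation. MT-ND1 was at 174 and 65.4 CPM on dox and at 54.5, 61.3, 71.9 and 51.9 CPM off dox. MT-ND2 was at 116 and 37.4 CPM on dox and at 31.8, 37.6, 43.8 and 28.9 CPM off dox. On-dox tumour 2 lay within the off-dox range for both. The log2 fold changes were 1.00 (SE 0.28, adjusted p = 0.135) for MT-ND1 and 1.11 (SE 0.33, adjusted p = 0.15) for MT-ND2.

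MT-ND6 is the only mRNA read from the light strand, opposite to all the others. It was at 44.0 and 14.8 CPM on dox and at 9.87, 12.3, 16.7 and 11.4 CPM in off-dox tumours 1 to 4. It was 3.50-fold above the off-dox mean in on-dox tumour 1 and 1.17-fold above it in on-dox tumour 2. These values are near those of the heavy-strand gene MT-ND4, at 3.49-fold and 1.10-fold. The MT-ND6 log2 fold change was 1.23 (SE 0.34, adjusted p = 0.124). The strand setting of the authors' counting is not given in the sources used here, so reads from the opposite strand may be part of MT-ND6.

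MT-ND3, a small complex I subunit, had the only log2 fold change below 0 among the mRNAs. It was at 74.8 and 80.8 CPM on dox and at 85.3, 82.0, 89.2 and 81.7 CPM off dox. Both on-dox tumours lay just below all off-dox tumours, as did 11.5% of all genes tested. The log2 fold change was -0.12 (SE 0.09, 95% interval -0.32 to 0.08; adjusted p = 0.598). MT-ND4, the complex I gene that follows it after 1 tRNA and MT-ND4L, had 5.92 and 1.73 counts per MT-ND3 count on dox and 1.08 to 1.75 off dox.

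MT-CYB encodes cytochrome b, the single mitochondrial subunit of complex III. It was at 360.5 and 138 CPM on dox and at 92.1, 118, 133 and 114 CPM in off-dox tumours 1 to 4. Both on-dox tumours lay above the off-dox tumours, on-dox tumour 2 by a small margin. The log2 fold change was 1.13 (SE 0.28, 95% interval 0.51 to 1.74; adjusted p = 0.0913).

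Complex IV, the cytochrome c oxidase that reduces oxygen, is built on MT-CO1, MT-CO2 and MT-CO3. MT-CO1, which holds the catalytic centre, was at 1766 and 1011 CPM on dox and at 849, 976, 986 and 958 CPM off dox. MT-CO2, which receives electrons from cytochrome c, was at 522 and 362 CPM on dox and at 297, 319, 324 and 307 CPM off dox. For both genes the groups did not overlap. Their log2 fold changes were 0.56 (SE 0.18, adjusted p = 0.193) for MT-CO1 and 0.50 (SE 0.13, adjusted p = 0.111) for MT-CO2.

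MT-CO3 was at 812 and 614 CPM on dox and at 636, 612, 650.2 and 663 CPM off dox. Only on-dox tumour 1 was above the off-dox range, 1.27-fold over the off-dox mean. The log2 fold change of MT-CO3 was 0.16 (SE 0.12, 95% interval -0.12 to 0.43; adjusted p = 0.62). The groups did not overlap for MT-ND5, MT-CYB, MT-CO1 and MT-CO2, that is for 4 of 13 mRNAs in the higher direction, beside 11.5% of all genes tested.

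MT-ATP6, the channel subunit of the ATP synthase, was at 155 and 57.0 CPM on dox and at 39.6, 53.5, 65.0 and 52.2 CPM off dox. MT-ATP8, its small partner, was at 24.6 and 8.05 CPM on dox and at 6.61, 10.5, 10.03 and 9.03 CPM off dox. On-dox tumour 2 lay within the off-dox range for both. The log2 fold changes were 1.01 (SE 0.30, adjusted p = 0.155) for MT-ATP6 and 0.86 (SE 0.34, adjusted p = 0.29) for MT-ATP8.

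**Figure D2:**
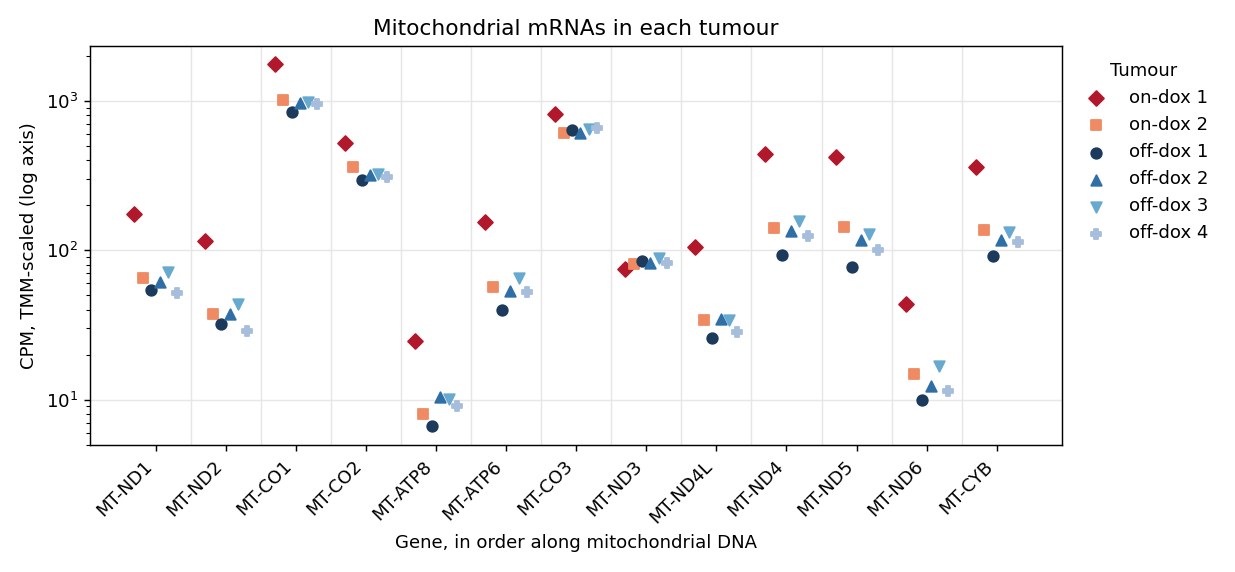
CPM of the 13 mitochondrial mRNAs (log axis) in each of the 6 tumours, with genes in their order along mitochondrial DNA and 1 point per tumour. On-dox tumour 1 is above the off-dox tumours for every gene except MT-ND3, while on-dox tumour 2 lies among or near the off-dox tumours.

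The make-up of the mitochondrial mRNA pool, which needs no scaling between libraries, also set on-dox tumour 1 apart. The complex IV mRNAs took 61.8% and 73.4% of mitochondrial mRNA counts on dox and 72.4% to 77.5% off dox. The complex I mRNAs took 27.5% and 19.1% on dox and 16.4% to 19.98% off dox. MT-CO3 alone took 16.2% and 22.7% on dox and 23.8% to 27.7% off dox, so both on-dox tumours were below the off-dox range. MT-CO1, the most counted member, took 35.2% and 37.4% on dox and 36.4% to 38.0% off dox.

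**Figure D3:**
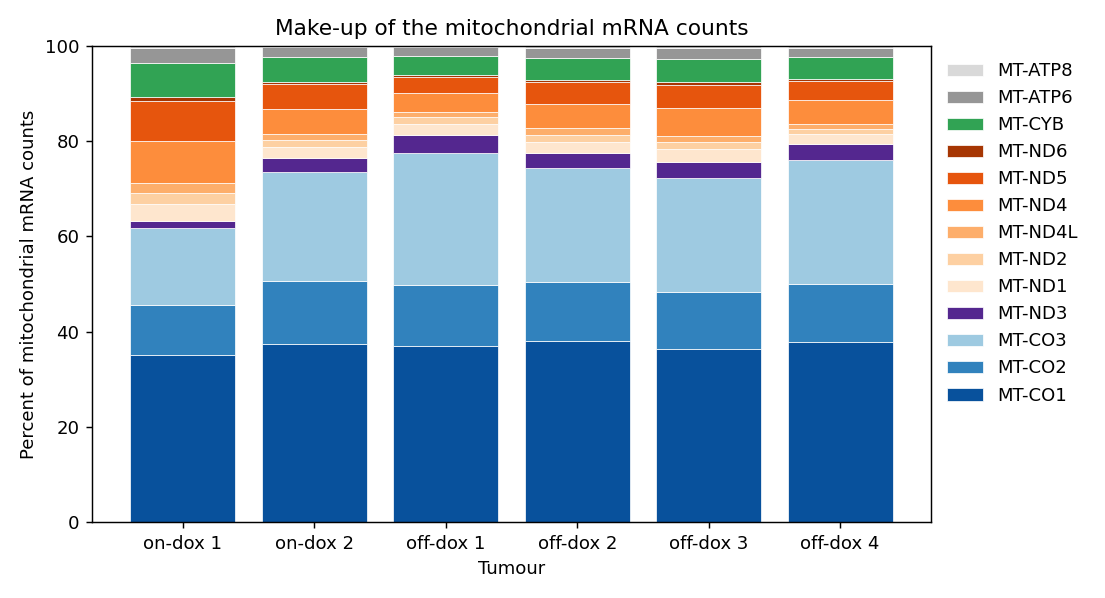
Percent of mitochondrial mRNA counts taken by each of the 13 mRNAs, with 1 stacked bar per tumour. MT-CO1, MT-CO2 and MT-CO3 together take 61.8% in on-dox tumour 1 and 72.4% to 77.5% in the other 5 tumours, and complex I genes take 27.5% in on-dox tumour 1.

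Within on-dox tumour 1 the excess over the off-dox mean was uneven. It was 3.96-fold for MT-ND5, 2.73-fold to 3.50-fold for the next 8 mRNAs, 1.87-fold for MT-CO1, 1.67-fold for MT-CO2, 1.27-fold for MT-CO3 and 0.885-fold for MT-ND3. The 4 genes with the smallest values were the 4 with the highest level per length off dox. Mean off-dox levels were 817 CPM per kilobase for MT-CO3, 611 for MT-CO1, 456 for MT-CO2 and 244 for MT-ND3, while the other mRNAs had 23.95 to 103 CPM per kilobase. Across the 13 mRNAs, level per length off dox and log2 fold change had a Spearman's rho of -0.63 and a Pearson's r of -0.76 (level on a log2 scale). This describes genes of the same 6 libraries, which are not independent, and both measures contain the off-dox values.

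**Figure D4:**
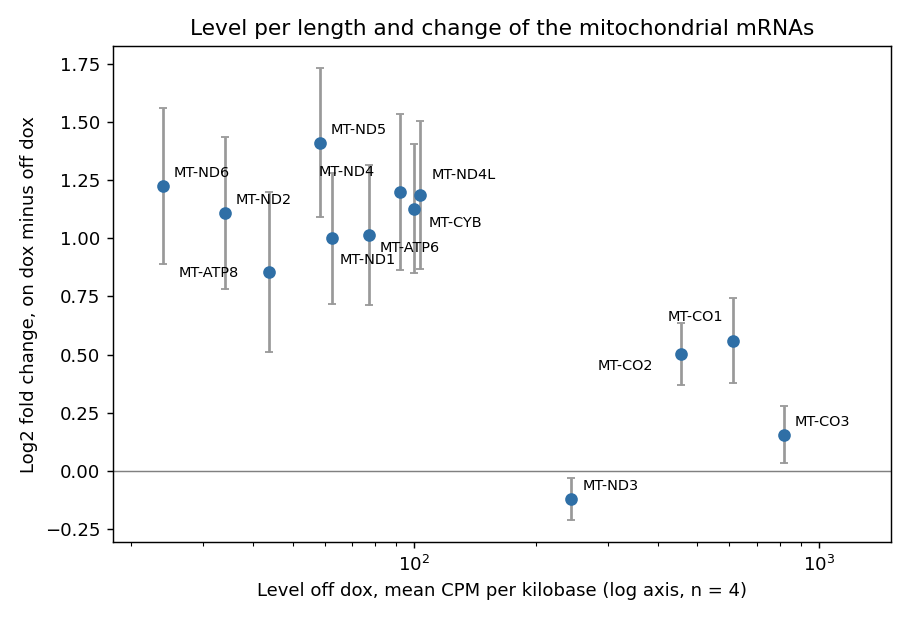
Log2 fold change of each mitochondrial mRNA, on dox minus off dox, with bars of 1 SE, against its mean off-dox level in CPM per kilobase (log axis). MT-CO1, MT-CO2, MT-CO3 and MT-ND3 lie at the right with log2 fold changes from -0.12 to 0.56, and the other 9 mRNAs lie at 0.86 to 1.41.

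The order of the genes along the heavy-strand precursor did not sort these values. MT-CO3 and MT-ND3 lie with 1 tRNA gene separating them, between MT-ATP6 and MT-ND4L, whose log2 fold changes were 1.01 and 1.18. The rRNA genes, the first long genes on that strand, were at 0.20 and 0.15, near MT-CO3 at 0.16.

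Among the mRNAs, the off-dox tumours varied along a like pattern. Their coefficient of variation was 3.40% for MT-CO3, 3.92% for MT-CO2, 4.15% for MT-ND3 and 6.70% for MT-CO1, and 13.9% to 23.4% for the other 9 mRNAs. The likeness did not extend to all members. MT-RNR1 and MT-RNR2 varied by 22.0% and 27.1% off dox, yet on-dox tumour 1 lay inside their off-dox range. MT-TP varied by 4.05% off dox, yet on-dox tumour 1 lay below its off-dox range. Off-dox tumour 1 was lowest of the off-dox tumours for 9 of 13 mRNAs, and off-dox tumour 3 was highest for 10 of 13. MT-ND5 had 0.518 and 0.234 counts per MT-CO3 count in on-dox tumours 1 and 2, and 0.122, 0.191, 0.198 and 0.152 in off-dox tumours 1 to 4. Off-dox tumour 3 also had the largest off-dox share of MALAT1 and NEAT1, at 2.33%. The smallest was in off-dox tumour 4, at 1.48%, and not in off-dox tumour 1, at 1.65%.

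Nuclear DNA holds copies of mitochondrial genes, and a read that fits both places may be lost or misassigned. Of the 50-base words of each mRNA, the share that also occurred in another annotated transcript of GENCODE 29 was largest for MT-CO1 (49.5%), MT-ATP6 (46.7%) and MT-ND2 (43.6%), and was 0% for MT-ND3 and MT-ND4L. It was 1.19% for MT-CYB, 3.54% for MT-ND4 and 4.77% for MT-ND5. Among genes with few shared words, MT-ND5 and MT-ND3 had the highest and the lowest log2 fold change. Copies outside annotated transcripts were not covered.

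MT-RNR2 and MT-RNR1 are the RNAs of the large and the small subunit of the mitochondrial ribosome. MT-RNR2 was at 161 and 133 CPM on dox and at 116, 136, 180 and 96.0 CPM in off-dox tumours 1 to 4. MT-RNR1 was at 24.5 and 20.8 CPM on dox and at 17.8, 20.04, 25.7 and 15.6 CPM off dox. All on-dox values were inside the off-dox range. The log2 fold changes were 0.15 (SE 0.20, 95% interval -0.29 to 0.60; adjusted p = 0.789) for MT-RNR2 and 0.20 (SE 0.18, 95% interval -0.21 to 0.60; adjusted p = 0.689) for MT-RNR1. There were 6.59 and 6.37 MT-RNR2 counts per MT-RNR1 count on dox and 6.16 to 6.99 off dox. Of the 50-base words of MT-RNR2, 14.04% also occurred in another transcript, most often in MTRNR2L12, a nuclear copy of it.

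The tRNAs, which carry amino acids to the mitochondrial ribosome, were thinly counted. Of 22 tRNA genes, 6 were tested, 10 had 1 to 14 counts over all tumours, and 6 had none. No count over the summed 151923867 counts allows a level of up to 0.0198 CPM. MT-TP, MT-TC and MT-TN, the tRNAs for proline, cysteine and asparagine, held 91.6% of the 9399 tRNA counts. All 3 belong to the 8 tRNA genes read from the light strand, which together held 93.0% of tRNA counts, against 14 genes on the heavy strand. Of the other light-strand tRNAs, MT-TY had 111 counts, MT-TE 14, MT-TA 3, and MT-TQ and MT-TS1 had 0. As for MT-ND6, the strand setting is not known here, so reads from the opposite strand may be part of these counts. How reads that touch neighbouring genes were counted is not given either.

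The gene sequences of these 3 tRNAs, and of MT-TM for methionine, are given because they carry most of the tRNA counts and the largest tRNA difference. They come from GENCODE 29 (GRCh38), 5′ to 3′ in DNA letters. Capitals mark the anticodon, found as the expected letters in the middle of the gene after 2 pyrimidines and before a purine.
MT-TP: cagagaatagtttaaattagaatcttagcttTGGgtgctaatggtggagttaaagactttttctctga
MT-TC: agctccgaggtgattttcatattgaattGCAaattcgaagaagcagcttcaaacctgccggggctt
MT-TN: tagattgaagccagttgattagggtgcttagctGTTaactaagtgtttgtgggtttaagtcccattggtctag
MT-TM: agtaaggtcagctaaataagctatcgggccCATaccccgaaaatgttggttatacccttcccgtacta

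MT-TP had 613 and 1013 counts on dox and 991, 921, 994 and 1037 counts in off-dox tumours 1 to 4. This was 23.7 and 41.0 CPM on dox and 37.3 to 40.9 CPM off dox, so on-dox tumour 1 was the lowest and on-dox tumour 2 was just above the off-dox range. The log2 fold change was -0.27 (SE 0.18, adjusted p = 0.548). Without on-dox tumour 2 it was -0.72 and MT-TP was called (adjusted p = 0.0261), and without on-dox tumour 1 it was 0.08. There were 0.0658 and 0.298 MT-TP counts per MT-CYB count on dox and 0.308 to 0.413 off dox.

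MT-TC was at 14.1 and 9.95 CPM on dox and 9.45 to 13.6 CPM off dox, with a log2 fold change at 0.07 (SE 0.19, adjusted p = 0.907). MT-TN was at 8.82 and 8.25 CPM on dox and 6.97 to 9.26 CPM off dox, with a log2 fold change at 0.04 (SE 0.17, adjusted p = 0.945). The groups overlapped for both.

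MT-TM, the tRNA for methionine that serves starting and elongating ribosomes, had 12 and 14 counts on dox and 49, 41, 32 and 25 counts off dox. In CPM both on-dox tumours were below all off-dox tumours, as were 11.5% of all genes tested. Its log2 fold change was -1.49 (SE 0.42, 95% interval -2.40 to -0.57; adjusted p = 0.131), and it ranged from -1.64 to -1.33 with any 1 tumour left out. The exact permutation test gave p = 0.133. MT-TV, for valine, had 43 and 98 counts on dox and 113, 82, 73 and 45 off dox (adjusted p = 0.919). MT-TY, for tyrosine, had 21 and 13 counts on dox and 13, 18, 31 and 15 off dox (adjusted p = 0.904).

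**Figure D5:**
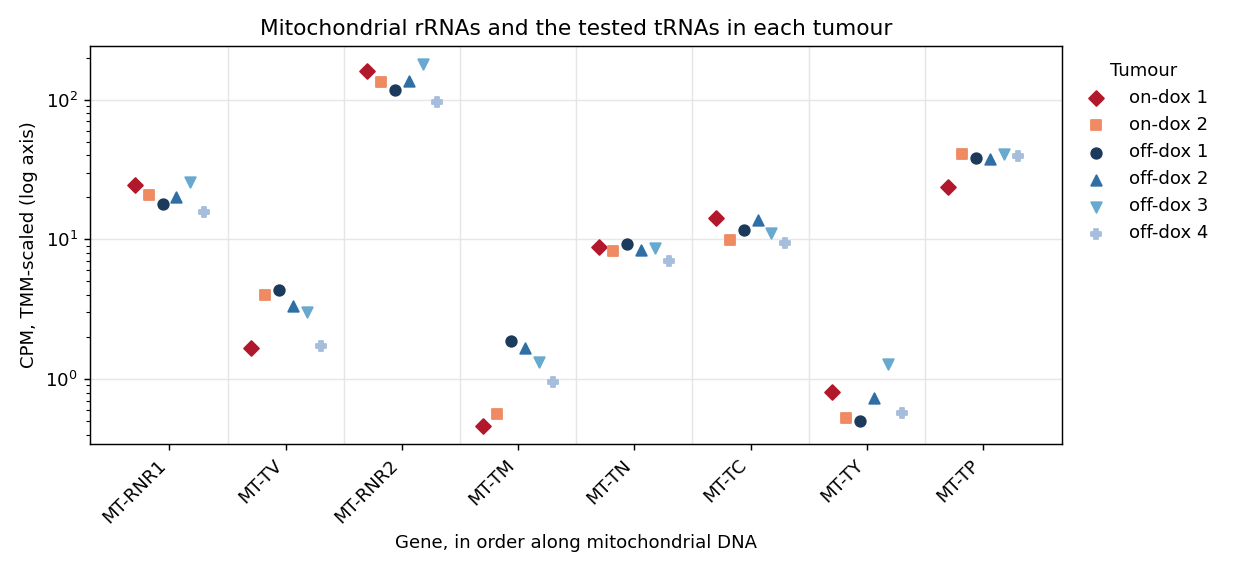
CPM (log axis) of the 2 rRNAs and the 6 tested tRNAs in each tumour, in gene order along mitochondrial DNA, with 1 point per tumour. The groups overlap for every gene except MT-TM, where both on-dox tumours lie below the off-dox tumours, as for 11.5% of all genes tested.

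The nuclear genes that maintain mitochondrial DNA and make, process and charge its RNAs showed no call. None of 64 genes passed (edgeR adjusted p under 0.05), beside 1.06% of all genes tested, and 7 had an unadjusted p under 0.05, beside 14.3% of all genes. The median log2 fold change was -0.02. DESeq2 called 2 of them, PNPT1 and LRPPRC, beside 3.4% of all genes. PNPT1, an exonuclease of the mitochondrial RNA degradosome, was at 176 and 211 CPM on dox and at 125, 155, 138 and 139 CPM off dox, which gave 0.48 on the log2 scale (SE 0.11, adjusted p = 0.0762). LRPPRC, which binds and stabilises mitochondrial mRNAs, was at 413 and 413 CPM on dox and at 320.0, 312, 308 and 338 CPM off dox, which gave 0.37 (SE 0.09, adjusted p = 0.0899). For both genes the on-dox tumours lay above all off-dox tumours, as did 11.5% of all genes tested.

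ELAC2, the nuclease that cuts the 3′ ends of tRNAs, was at 122 and 128 CPM on dox and 141 to 173 CPM off dox (log2 fold change -0.34, adjusted p = 0.159). In this list of RNA processing and stability, 9 of 22 genes had a log2 fold change above 0 and the median was -0.02. Of 9 transcription genes, 5 were above 0, with a median of 0.00. TFB1M, a methyltransferase of the small ribosomal RNA, was at 24.7 and 25.4 CPM on dox and 30.5 to 31.2 CPM off dox (log2 fold change -0.30, adjusted p = 0.215). TEFM, the elongation factor, and MTERF2, of the termination factor family, were both at 0.13 on the log2 scale (adjusted p = 0.743 and 0.770).

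Of 13 genes of mitochondrial DNA maintenance, 8 were above 0, with a median log2 fold change of 0.04. The polymerase POLG was at -0.12, the thymidine kinase TK2 at 0.12 and C10orf2, the helicase Twinkle, at 0.13 (adjusted p = 0.630, 0.638 and 0.669). Of 20 genes for mitochondrial tRNA charging, 6 were above 0, with a median of -0.06. NARS2, which charges MT-TN with asparagine, was at 31.6 and 38.2 CPM on dox and 42 to 45.1 CPM off dox (log2 fold change -0.32, adjusted p = 0.221). GATB, of the complex that forms the glutamine tRNA charge, was at -0.37 (adjusted p = 0.315).

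The nuclear partners of the mitochondrial subunits lay lower in the tumour where the mitochondrial mRNAs were highest. The 22 listed nuclear-encoded subunits of complexes I, III, IV and V, not all of them core subunits, summed to 2765 and 3710 CPM on dox. Off dox the sums were 3338 to 3639 CPM. Their median was -0.33 in on-dox tumour 1 and 0.10 in on-dox tumour 2, relative to the off-dox mean on the log2 scale, where the mitochondrial mRNAs had 1.56 and 0.13. UQCRFS1, the iron-sulfur subunit of complex III that works beside MT-CYB, was at 69.7 and 102 CPM on dox and 122 to 131 CPM off dox (log2 fold change -0.56, adjusted p = 0.0897). NDUFS7 of complex I and UQCRC1 of complex III were at -0.42 and -0.25 (adjusted p = 0.325 and 0.374). None of the 22 was called by edgeR, beside 1.06% of all genes, and 2 had an unadjusted p under 0.05, beside 14.3% of all genes.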

How the data were processed

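Per the labels' protocols, Trizol RNA went into Illumina libraries. The authors deposited raw whole-number counts per gene for each tumour. The submitters' processing notes name STAR, HTSeq, limma and hg19; annotation, strand setting and treatment of mouse or multiply aligned reads: not given in the sources used here. Repeated identifiers (25) were removed. Missing symbols were filled from GENCODE 29 by identifier; lengths and sequences come from the same release, on another build, so no coordinates are given.

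Genes passing filterByExpr (21308) were tested with edgeR 4.0.16 (R 4.3.3), TMM scaling and the quasi-likelihood F test. Alternatives used DESeq2 1.42.0, limma 3.58.1 voom, other scalings, filters and a replicate block, and left out each tumour. The fit was tested on simulated data. SDs and p-values measure spread between tumours of 1 cell line. No pair of tumours within a group was a duplicate. Chi-square per degree of freedom over all genes was 45.7 for the on-dox pair and 8.57 to 19.0 for the off-dox pairs. Members and lists were chosen with earlier results of these data known. All MT- mRNAs, rRNAs and tested tRNAs are named, with the 3 members of smallest p of each other list (1 gene is not reported here) and the 6 most counted nuclear copies; ribosomal protein genes were taken by symbol.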

Additional observations from a re-analysis of the deposited data

How the results depend on the processing

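Each mitochondrial mRNA kept its direction under the other scalings, filters, tools and the replicate block. The count of genes called over all genes was 225, and 770 with no low-count filter, 724 with DESeq2, 53 with the replicate block, 533 at an adjusted p under 0.1, and 72 to 562 with 1 tumour left out. The count of mitochondrial mRNAs called was 0, and 11 with no low-count filter, 2 with DESeq2, 2 (MT-ND5 and MT-CYB) at an adjusted p under 0.1, and 0 to 11 with 1 tumour left out; the cause of the difference without a filter was not tested. For rRNAs it was 0 in every fit, and for tRNAs 0 to 1 with 1 tumour left out. Of the expression machinery, 1 gene (PNPT1) was called with no low-count filter, 2 with DESeq2, 2 at an adjusted p under 0.1, and 0 to 0 with 1 tumour left out. With 1 tumour left out, the median log2 fold change of the mRNAs ranged from 0.13 to 1.56. The on-dox minus off-dox difference in their percent of counts ranged from 0.00767 to 0.277 points, and that of the log2 rRNA to mRNA ratio from -0.67 to -0.05.

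With the replicate block, MT-TN was at -0.043, MT-TC at -0.084 and MT-TY at 0.12, each with its sign turned. Same-numbered tumours correlated at -0.122 and -0.040 in their deviations from the group means. The deviations of the on-dox tumours mirror each other, so these values cannot decide whether the numbers pair the tumours. With 1 tumour left out, signs also turned for MT-TV (-0.90 to 0.36), MT-TN (-0.034 to 0.10), MT-TC (-0.20 to 0.30), MT-TY (-0.54 to 0.16), MT-TP (-0.72 to 0.076), MT-ATP8 (-0.16 to 1.44), MT-CO3 (-0.059 to 0.34), TK2 (-0.014 to 0.24), NEAT1 (-0.069 to 1.05), MTATP6P1 (-0.21 to 1.38), MTRNR2L10 (-0.38 to 0.71) and MTND2P28 (-0.079 to 1.55). Over the 6 mRNAs with at least 90% of their words unique, a choice made after seeing the data, the median was 1.16. Of the tRNAs, 16 of 22 had too few counts to be tested, and the cause of the low counts was not tested.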

Other observations

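The table also held 399 nuclear copies of mitochondrial genes, of which 229 had no count and 34 were tested. Their summed count was 1857 and 851 in on-dox tumours 1 and 2 and 876 to 1318 off dox, against 135782 and 72245 for the mitochondrial genes themselves on dox and 64991 to 72501 off dox. On-dox tumour 1 was thus the highest for the copies as well. MTATP6P1, the copy with the most counts, had 381 and 121 counts on dox and 126, 116, 180 and 150 counts in off-dox tumours 1 to 4 (log2 fold change 0.80, edgeR adjusted p = 0.344). MTND2P28 had 156 and 48 counts on dox and 54, 38, 62 and 54 off dox (0.96, adjusted p = 0.305). MTCO1P12 had 79 and 102 counts on dox and 38, 56, 45 and 72 off dox (0.79, adjusted p = 0.267). These 3 copies share 50-base words with their mitochondrial gene, 295 with MT-ATP6, 433 with MT-ND2 and 738 with MT-CO1, so their reads cannot be assigned with certainty. MTRNR2L10 was at 170 and 76 counts on dox and 28 to 166 off dox, MTRNR2L9 at 44 and 4 on dox and 10 to 128 off dox, and MTND4P15 at 28 and 26 on dox and 31 to 49 off dox. None of the 34 was called by edgeR, beside 1.06% of all genes tested. With no low-count filter, edgeR called 1 among all copies with counts, beside 1.96% of all genes.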
